A study of Homo sapiens with 8 samples.

Results

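The hypoxia response and glycolysis genes described here are 36 genes, taken by their symbols from the 60622 genes of the count table. They comprise 18 enzymes of glycolysis and its control and 18 other genes. The enzymes are the 16 from hexokinase to lactate dehydrogenase (HK1, HK2, GPI, PFKM, PFKL, PFKP, ALDOA, ALDOC, TPI1, GAPDH, PGK1, PGAM1, ENO1, PKM, LDHA and LDHB) together with PFKFB3 and PFKFB4. The other genes are the hypoxia-inducible factor (HIF) subunits HIF1A and EPAS1, the oxygen sensors EGLN1 and EGLN3, the transporters SLC2A1, SLC2A3 and SLC16A3, the kinase PDK1, and 10 further HIF targets (CA9, ADM, ANGPTL4, NDRG1, BNIP3, BNIP3L, P4HA1, P4HA2, ANKRD37 and DDIT4). All 36 passed the filter on low counts and were tested among 21066 genes.

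RNA was sequenced from 8 libraries in 4 groups of 2: LNCaP control, LNCaP with miR-375 overexpressed, PC3 control, and PC3 with miR-375 overexpressed. Library totals ran from 33973861 to 41890528 counts. LNCaP, from a metastasis in a lymph node, is a prostate carcinoma line that responds to androgen, and PC3, from a metastasis in bone, grows without it. LNCaP was grown in RPMI-1640 with 10% fetal bovine serum and PC3 in the same medium with 20%, both with penicillin and streptomycin, so line and serum cannot be told apart where the lines are compared. The sources used here give neither the means nor the duration of the overexpression, nor the treatment of the controls. Separate cultures are not stated for the libraries of a group, so p-values cover only the spread between them, and that spread may be technical. The libraries are described as cultured at 5% CO2, and no oxygen level is stated.

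Glycolysis splits glucose to pyruvate. Its preparatory phase, from hexokinase to triose phosphate isomerase, spends ATP, and its payoff phase, from GAPDH to pyruvate kinase, yields ATP and NADH, after which lactate dehydrogenase regenerates NAD+. Under low oxygen the prolyl hydroxylases encoded by EGLN1 and EGLN3 lose activity, the alpha subunits HIF-1α (HIF1A) and HIF-2α (EPAS1) escape degradation, and with ARNT they bind the hypoxia response element of target genes, which include most glycolytic enzymes. HIF alpha subunits are controlled mainly at the protein level, which RNA counts do not show.

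The sequence of the overexpressed microRNA is shown first, since 2 of the 36 genes carry a match to its seed. Capitals mark the seed, bases 2 to 8 counted from the 5′ end. The sequence is from RefSeq on GRCh38.p14 (chr2:219001648-219001669, minus strand).

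hsa-miR-375-3p: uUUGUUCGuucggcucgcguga

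The longest annotated 3′ UTR of each gene (GENCODE release 29, GRCh38) was searched for CGAACAA, which pairs with bases 2 to 8, and for GAACAAA, which pairs with bases 2 to 7 and ends in an A. The search covered the transcript strand alone. LDHB and PDK1 each held a single GAACAAA, shown in capitals, and none of the 36 held CGAACAA.

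LDHB: tctgagctcttGAACAAAtaaaattaact

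PDK1: tagaagcagaaGAACAAAatgccacgtaa

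The LDHB match lies at chr12:21635364-21635370 on the minus strand, at base 172 of a 3′ UTR of 200 bases. The PDK1 match lies at chr2:172597048-172597054 on the plus strand, at base 1079 of 12700. Among the 14687 tested genes with an annotated 3′ UTR, 16.8% held either match and 1.14% held CGAACAA. A match is a description of the letters, and binding was not measured. The mature microRNA is not captured by poly(A) selection, and its gene MIR375 had 0 counts over all libraries, so the counts do not check the overexpression.

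The other sequence of interest is the core of the hypoxia response element, searched as ACGTG and GCGTG on both strands from 250 bases before to 50 bases after each RefSeq gene start (GRCh38.p14). RefSeq promoters were matched for 33 of the 36 genes, which have 60 starts. A core stood in 40 of the 60 windows (66.7%), against 58.1% of the 18419 windows of tested genes and 48.4% of all 35116 windows. ACGTG alone stood in 24 of the 60 (40%), against 24.4% of the windows of tested genes. The share with a core was 64.1% of 39 windows for the enzymes and 71.4% of 21 windows for the other genes. As examples, a single core is shown in capitals for each of 5 targets of HIF that rose in PC3 and, last, for LDHA, which fell in both lines. The window that the LDHA core is taken from holds 6 cores, counted over both strands. Among other genes that fell in both lines, the HK2 windows hold 3 and 6 and the GAPDH window 2. CACGTG reads the same on both strands, so a single such site counts as 2 cores. The 2 GAPDH cores (−81 and −80) are a single such site. The LDHA and HK2 windows with 6 cores also hold such pairs, so they have fewer separate sites than cores. The window of P4HA2, which rose in both lines, holds 0.

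CA9: tacgggctgtACGTGcattggaaac

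ANGPTL4: accgtgggagACGTGactcttcttt

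ADM: gcaggagcgcGCGTGgctgaggaaa

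DDIT4: aacgttgcttACGTGcgcccggagt

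P4HA1: agccctcgctACGTGagctcgatca

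LDHA: cccgactcacACGTGggttcccgca

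The CA9 window is chr9:35673900-35673924 on the minus strand, with the core at −18 from the start. The ANGPTL4 window is chr19:8363911-8363935 on the minus strand (−234), and the ADM window is chr11:10304962-10304986 on the plus strand (−101). The DDIT4 window is chr10:72273789-72273813 on the plus strand (−125). The P4HA1 window is chr10:73096938-73096962 on the plus strand (−86), and the LDHA window is chr11:18394467-18394491 on the plus strand (−86). Each sequence reads 5′ to 3′ on the strand named.

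With miR-375 in PC3, 21 of the 36 genes rose and 9 fell, with HIF targets outside glycolysis leading and ANGPTL4 12.7-fold higher. In LNCaP 10 rose and 12 fell, mostly by little, with 19 of the 36 changing by under 0.25 on the log2 scale. Genes are called where the adjusted p of edgeR's quasi-likelihood test, Benjamini-Hochberg over all 21066 tested genes, is under 0.05. Of all tested genes 22.2% rose and 20.8% fell in PC3, and 13.9% rose and 18.7% fell in LNCaP. The median log2 fold change of the 36 was 0.26 in PC3 (0.02 over all tested genes) and 0.07 in LNCaP (0.00). Values of change are given as log2 fold change of miR-375 over control, with its SE where it is followed by ±.

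The balance of higher and lower calls depended on the scaling. With library totals in place of TMM (trimmed mean of M-values) scaling, the median of all tested genes moved to 0.12 in LNCaP and to 0.10 in PC3, and the split of the 36 became 17 higher and 8 lower in LNCaP and 26 and 6 in PC3. With RLE size factors the LNCaP split was 14 and 10, and with no filter on low counts it was 13 and 8. Leaving out LNCaP control library 1 or LNCaP miR-375 library 2 left 7 genes lower in LNCaP in place of 12.

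The rises in PC3 were larger among the 18 genes outside the enzymes. Of the enzymes, 9 rose and 7 fell in PC3 (median 0.08), and 5 rose and 9 fell in LNCaP (median −0.03). Of the other 18 genes, 12 rose and 2 fell in PC3 (median 0.43), and 5 rose and 3 fell in LNCaP (median 0.11). The LNCaP counts rest on single libraries: without miR-375 library 2, 9 enzymes rose and 5 fell, without control library 1, 5 enzymes fell, and without miR-375 library 1, 3 of the other genes rose. In PC3 the summed level of the other genes went from 4648 and 4711 CPM (counts scaled to TMM-adjusted library size) in the controls to 6584 and 6545 CPM. Much of that rise was NDRG1 alone (1220 and 1261 against 2457 and 2458 CPM). The summed level of the enzymes went from 20834 and 21016 CPM to 19482 and 19337 CPM, so both sums separated the groups, in opposite directions. In LNCaP the sum of the other genes overlapped between groups (1321 and 1329 CPM against 1404 and 1259 CPM), while that of the enzymes was lower with miR-375 (15606 and 15258 CPM against 14625 and 13715 CPM). These sums depend on the TMM factors, which were 0.972 and 0.979 in the LNCaP controls and 1.06 in both LNCaP miR-375 libraries. Without the factors the enzyme sums of the LNCaP groups would overlap. In PC3 the factors were 0.957 and 0.958 in the controls and 1.01 in both miR-375 libraries, so the enzyme fall there would be smaller. In bulk RNA, fewer cells of a kind and less RNA per cell cannot be told apart.

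**Figure D1:**
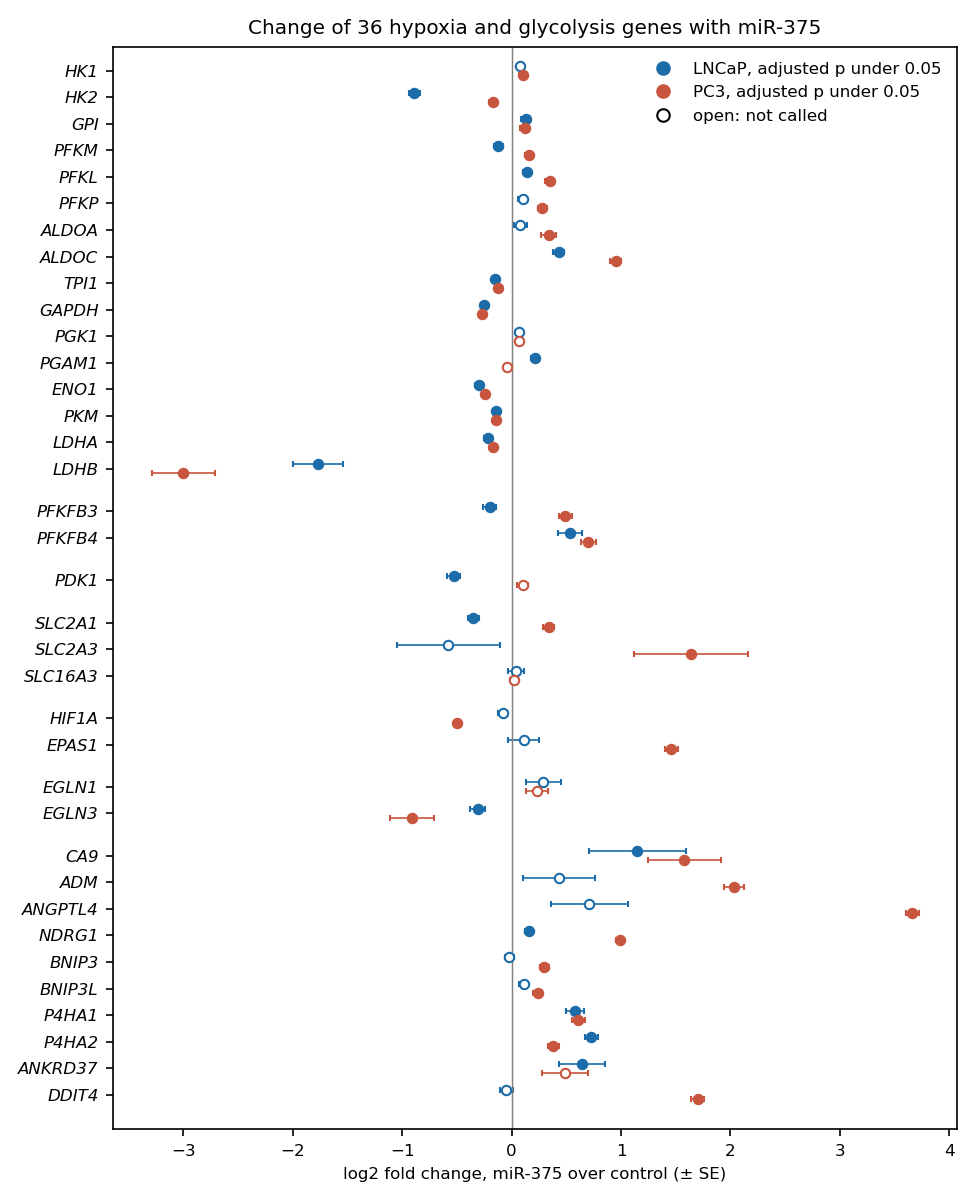
Log2 fold change of each of the 36 genes with miR-375 in LNCaP (blue) and PC3 (red), with bars of 1 SE from the edgeR fit over 2 libraries per group. Filled points passed an adjusted p of 0.05, and open points did not. The points farthest right are PC3 values of HIF targets, led by ANGPTL4 at 3.66, and those farthest left are both LDHB, with the PC3 value the lower.

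Over the 36 genes, the miR-375 libraries of LNCaP were less alike than those of the other groups, which was not so over all genes (chi-square over degrees of freedom of 3.13, against 3.06 to 3.37 in the others). Library 1 lay above library 2 for 29 of the 36 genes, and by over 10% for 9 of the 29 genes above 5 CPM, against 1 the other way. The largest such ratio was 1.4, for PFKFB4. In the other groups at most 1 gene above 5 CPM differed by over 10% in either direction. Calls in LNCaP that end without either of these libraries are named beside the gene.

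The genes of the HIF alpha subunits moved apart in PC3. HIF1A, the subunit of the acute response, stood at 1113 and 1089 CPM in the PC3 controls and at 783 and 771 CPM with miR-375. The groups did not overlap, and HIF1A fell by 0.50 on the log2 scale (SE 0.03, adjusted p = 6.37e-15). EPAS1, the HIF-2α gene, stood at 71.8 and 78.3 CPM in the PC3 controls and at 204 and 209 CPM with miR-375. Both miR-375 libraries lay far above both controls, and EPAS1 rose by 1.46 ± 0.06 (adjusted p = 3.15e-19), or 2.76-fold. The ratio of EPAS1 to HIF1A within a library went from 0.0645 and 0.0719 to 0.261 and 0.272. In LNCaP neither was called. HIF1A stood at 137 and 144 CPM in the controls and 138 and 128 CPM with miR-375 (−0.08, adjusted p = 0.131), and EPAS1 at 4.56 and 4.32 CPM against 5.80 and 3.76 CPM (0.11, adjusted p = 0.634). The change in LNCaP differed from that in PC3 for both genes, by 0.43 for HIF1A (adjusted p = 3.26e-08) and by −1.35 for EPAS1 (adjusted p = 3.73e-08).

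Transcripts named as antisense to HIF1A were looked at after their values were seen, and HIF1A-AS3 went the other way in PC3. It stood at 12.2 and 13.5 CPM in the controls and 31.8 and 36.1 CPM with miR-375, a rise of 1.40 (adjusted p = 1.11e-12). HIF1A-AS1, which shares 2.27% of the exon bases of HIF1A on the opposite strand, stood at 1.47 and 0.986 CPM in the PC3 controls and 0.500 and 0.854 CPM with miR-375 and was not called (−0.86, adjusted p = 0.239). The counting's strand setting is not stated, so reads of overlapping or antisense genes may be shared.

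EGLN3, the oxygen sensor most strongly induced by HIF, fell in both lines, and EGLN1, the main sensor in normal oxygen, was not called in either. In LNCaP EGLN3 stood at 74.5 and 73.7 CPM in the controls and 62.5 and 56.8 CPM with miR-375, both below the controls (−0.31 ± 0.07, adjusted p = 6.48e-04). The call ended without LNCaP control library 1 (−0.25, adjusted p = 0.0514) and without LNCaP miR-375 library 2 (−0.20, adjusted p = 0.111). In PC3, where EGLN3 was scarce, the controls held 2.07 and 1.76 CPM (83 and 68 counts) and the miR-375 libraries 0.905 and 1.14 CPM (38 and 48 counts), again without overlap (−0.91 ± 0.20, adjusted p = 3.10e-04). EGLN1 stood at 25.7 and 23.2 CPM in the PC3 controls and 29.6 and 27.6 CPM with miR-375 (0.23, adjusted p = 0.0682), and in LNCaP at 3.38 and 3.44 against 4.31 and 4.04 CPM (0.29, adjusted p = 0.163). The libraries with miR-375 lay above the controls for EGLN1 in both lines without passing the test. With library totals EGLN1 was called higher in LNCaP (0.41, adjusted p = 0.0362) and in PC3 (0.30, adjusted p = 0.0134).

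**Figure D2:**
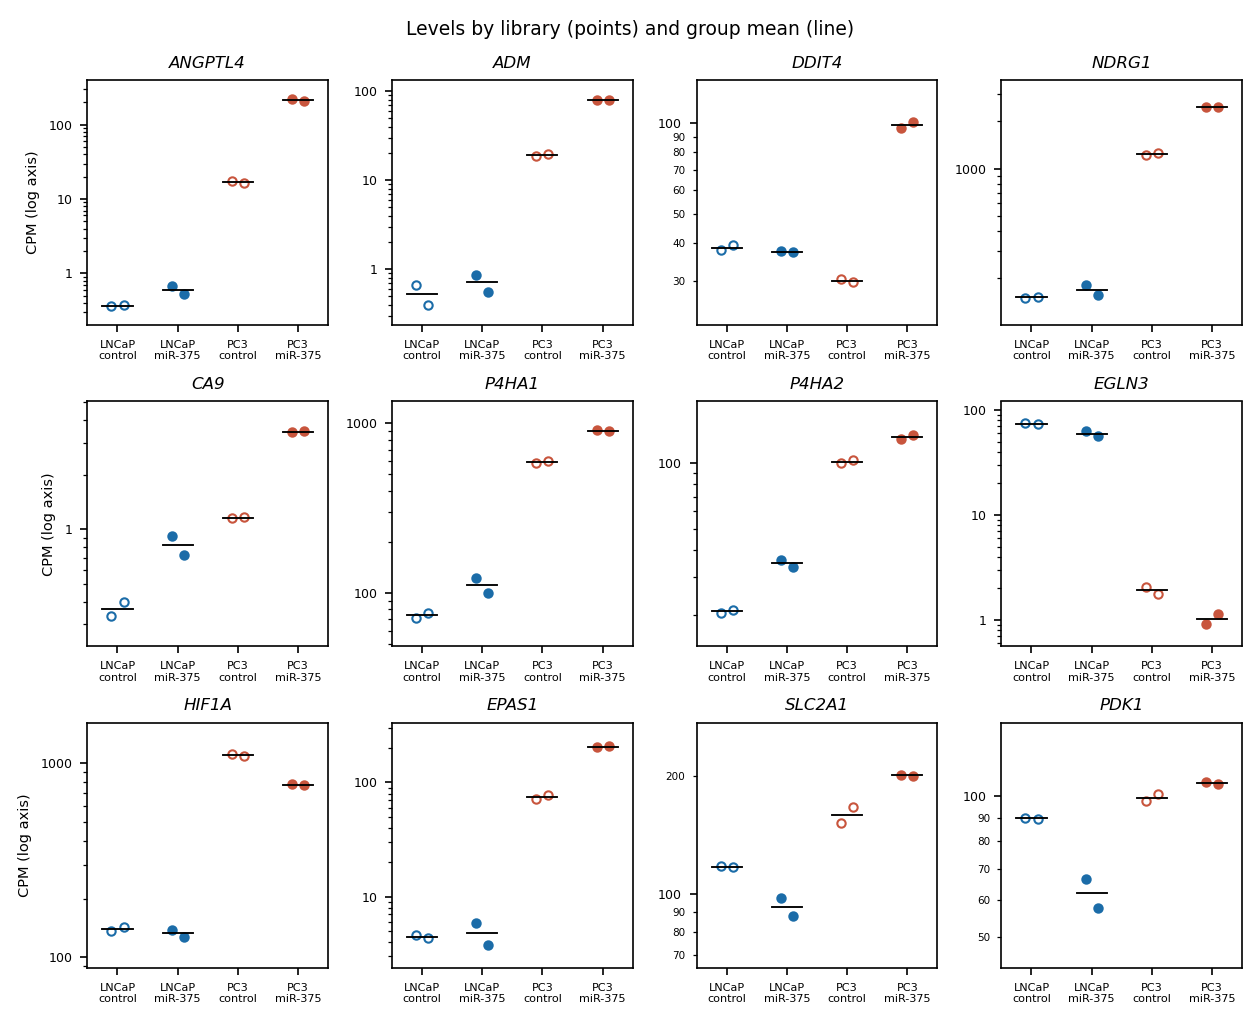
CPM on a log axis in each library (points) and the mean of each group (lines) for 12 genes outside the glycolytic enzymes: open points are controls, filled points miR-375, blue LNCaP and red PC3. ANGPTL4, ADM, DDIT4, NDRG1 and EPAS1 rise in PC3 while HIF1A falls there, and SLC2A1 moves down in LNCaP and up in PC3.

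Of the glucose transporter genes, SLC2A1 was called in opposite directions in the lines. SLC2A1, which encodes the glucose transporter GLUT1, stood at 118 and 117 CPM in the LNCaP controls and 97.5 and 87.8 CPM with miR-375, and fell by 0.35 on the log2 scale (SE 0.05, adjusted p = 3.22e-07). In PC3 it stood at 152 and 167 CPM in the controls and 202 and 201 CPM with miR-375, and rose by 0.34 ± 0.05 (adjusted p = 9.43e-08). The groups did not overlap in either line, and the lines differed by −0.68 (adjusted p = 2.44e-10). SLC2A3, the GLUT3 gene, was a trace transcript, with 6 and 20 counts in the PC3 controls and 43 and 45 with miR-375 (1.64 ± 0.52, adjusted p = 0.01). That call ended without PC3 control library 1 (1.01, adjusted p = 0.17), and pseudogenes named after SLC2A3 held 12.3% as many counts as the gene. SLC2A3 was not called in LNCaP (−0.58, adjusted p = 0.391), with 62 and 32 counts in the controls and 32 and 36 with miR-375, which overlapped. SLC16A3, which encodes the lactate exporter MCT4, was called in neither line, at 645 and 649 CPM in the PC3 controls and 661 and 652 CPM with miR-375 and from 10.3 to 11.2 CPM in the LNCaP libraries.

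Within the preparatory phase of glycolysis, 7 of the 9 genes rose and 2 fell in PC3 (22.2% and 20.8% of all tested genes). In LNCaP 3 rose and 3 fell (13.9% and 18.7% of all tested genes). Without PC3 miR-375 library 1 the number that rose in PC3 was 4. In LNCaP 6 rose and 1 fell without miR-375 library 2, and 1 fell without control library 1. Of the hexokinases, which commit glucose to the cell, HK2 fell in both lines and by more in LNCaP. HK2, the hexokinase raised in many tumours, stood at 89.3 and 92.6 CPM in the LNCaP controls and 51.3 and 47.2 CPM with miR-375, with no overlap, and fell by 0.89 on the log2 scale (SE 0.05, adjusted p = 1.18e-17). In PC3 it went from 290.2 and 297 CPM to 261 and 260.5 CPM (−0.17 ± 0.04, adjusted p = 4.85e-04), a call that ended with library totals (−0.09, adjusted p = 0.051). The fall in LNCaP was larger than that in PC3 by 0.72 (difference −0.72, adjusted p = 1.04e-11). HK1, the housekeeping hexokinase, stood at 208 and 207 CPM in the LNCaP controls and 218 and 221 CPM with miR-375 (0.08, adjusted p = 0.0774), and 9 of 17 alternatives called it higher there (up to 0.20). In PC3 HK1 rose by 0.10 (adjusted p = 0.0149), but 11 of the 17 alternatives ended this call, with adjusted p up to 0.225. Among them were the fits without either LNCaP control library (adjusted p = 0.0706 and 0.07), without either LNCaP miR-375 library (0.0793 and 0.0553), without either PC3 control library (0.168 and 0.0632) and without either PC3 miR-375 library (0.0985 and 0.0555). The ratio of HK2 to HK1 within a library went from 0.430 and 0.447 to 0.235 and 0.214 in LNCaP, and from 0.460 and 0.458 to 0.380 and 0.383 in PC3.

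GPI, the isomerase that follows hexokinase, rose by 0.13 in LNCaP (adjusted p = 0.0178) and by 0.12 in PC3 (adjusted p = 0.0367), in calls that many alternatives ended. In LNCaP it ended with DESeq2 (adjusted p = 0.082). It also ended there without control library 1 (change 0.21), control library 2 (0.16) or miR-375 library 1 (0.08). In PC3 it ended with DESeq2 (adjusted p = 0.352), limma-voom (0.252), RLE factors (0.0869), halved counts (0.054) and no filter (0.0512). The PC3 call also ended without either LNCaP control library (change 0.09 in both), PC3 control library 1 (0.09), or either PC3 miR-375 library (0.11 and 0.13).

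The phosphofructokinase genes, whose products catalyse the main regulated step, all rose in PC3. PFKL stood at 323 and 312 CPM in the PC3 controls and 407 and 406 CPM with miR-375 (0.35 ± 0.04, adjusted p = 1.08e-10). PFKP went from 134 in both PC3 controls to 166 and 158 CPM (0.28 ± 0.04, adjusted p = 4.74e-07). PFKM went from 134 and 136 CPM to 155 and 146 CPM (0.16 ± 0.04, adjusted p = 0.00149). The miR-375 libraries lay above the controls for each, and the call of PFKM ended without PC3 miR-375 library 1 (0.11, adjusted p = 0.0735). In LNCaP PFKL rose by 0.14 (adjusted p = 0.00262), PFKP was not called (0.10, adjusted p = 0.0669, but called higher in 8 of 17 alternatives, up to 0.22), and PFKM fell by 0.12 on the log2 scale (adjusted p = 0.0104). The fall of PFKM ended under 9 of 17 alternatives. These were RLE factors (adjusted p = 0.11), library totals (1), DESeq2 (0.111), no filter (0.5), halved counts (0.138), and leaving out either LNCaP control library (0.143 and 0.51) or either LNCaP miR-375 library (0.336 and 0.205).

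Of the enzymes that set fructose-2,6-bisphosphate, the activator of phosphofructokinase, PFKFB3 changed differently in the lines and PFKFB4 was not shown to (−0.17, adjusted p = 0.395). PFKFB3 stood at 62.9 and 63.1 CPM in the PC3 controls and 85.1 and 91.9 CPM with miR-375, and rose by 0.49 ± 0.06 (adjusted p = 3.38e-09). In LNCaP it went from 45.8 and 44.4 CPM to 40.5 and 38.0 CPM and fell by 0.20 on the log2 scale (SE 0.06, adjusted p = 0.0119). The lines differed by −0.69 (adjusted p = 3.74e-08). The LNCaP fall of PFKFB3 ended under 8 of 17 alternatives. It ended with RLE factors (adjusted p = 0.0532), library totals (0.385), DESeq2 (0.0891), halved counts (0.0745) and no filter (0.18). It also ended without LNCaP control library 1 (−0.12), control library 2 (−0.17) or miR-375 library 2 (−0.11). PFKFB4, a HIF-induced relative, rose in both lines. It went from 126 and 129 CPM to 207 in both libraries in PC3 (0.70 ± 0.07, adjusted p = 8.16e-08). In LNCaP it went from 12.6 and 11.5 CPM to 20.2 and 14.4 CPM (0.53 ± 0.11, adjusted p = 0.00101), with the 2 miR-375 libraries far apart but both above the controls, and the call ended without LNCaP control library 2 (adjusted p = 0.0635).

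Among the aldolases, ALDOC, the brain-type form and a HIF target, rose the most of the 18 enzymes in PC3. It stood at 38.5 and 35.5 CPM in the PC3 controls and 69.7 and 73.9 CPM with miR-375 (0.95 ± 0.05, adjusted p = 3.46e-17), and in LNCaP it went from 103 in both controls to 141 and 136 CPM (0.43 ± 0.05, adjusted p = 6.90e-09). The groups did not overlap in either line, and the rise in PC3 was the larger (difference −0.53, adjusted p = 5.14e-07). ALDOA, the muscle-type form, rose in PC3 from 36.9 and 37.0 CPM to 47.0 and 46.4 CPM (0.34 ± 0.07, adjusted p = 7.17e-05) and was not called in LNCaP (0.08, adjusted p = 0.381). ALDOA shares 42.3% of its exon bases with the same-strand gene AC093512.2, so its counts may hold only part of its reads. TPI1, which closes the preparatory phase, fell by 0.15 on the log2 scale in LNCaP (adjusted p = 1.60e-04) and by 0.12 in PC3 (adjusted p = 0.0026). With library totals neither fall was called (−0.03, adjusted p = 0.503, and −0.04, adjusted p = 0.321). In LNCaP the call of TPI1 also ended with no filter (adjusted p = 0.0556) and without control library 1 (−0.06) or miR-375 library 2 (−0.09).

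**Figure D3:**
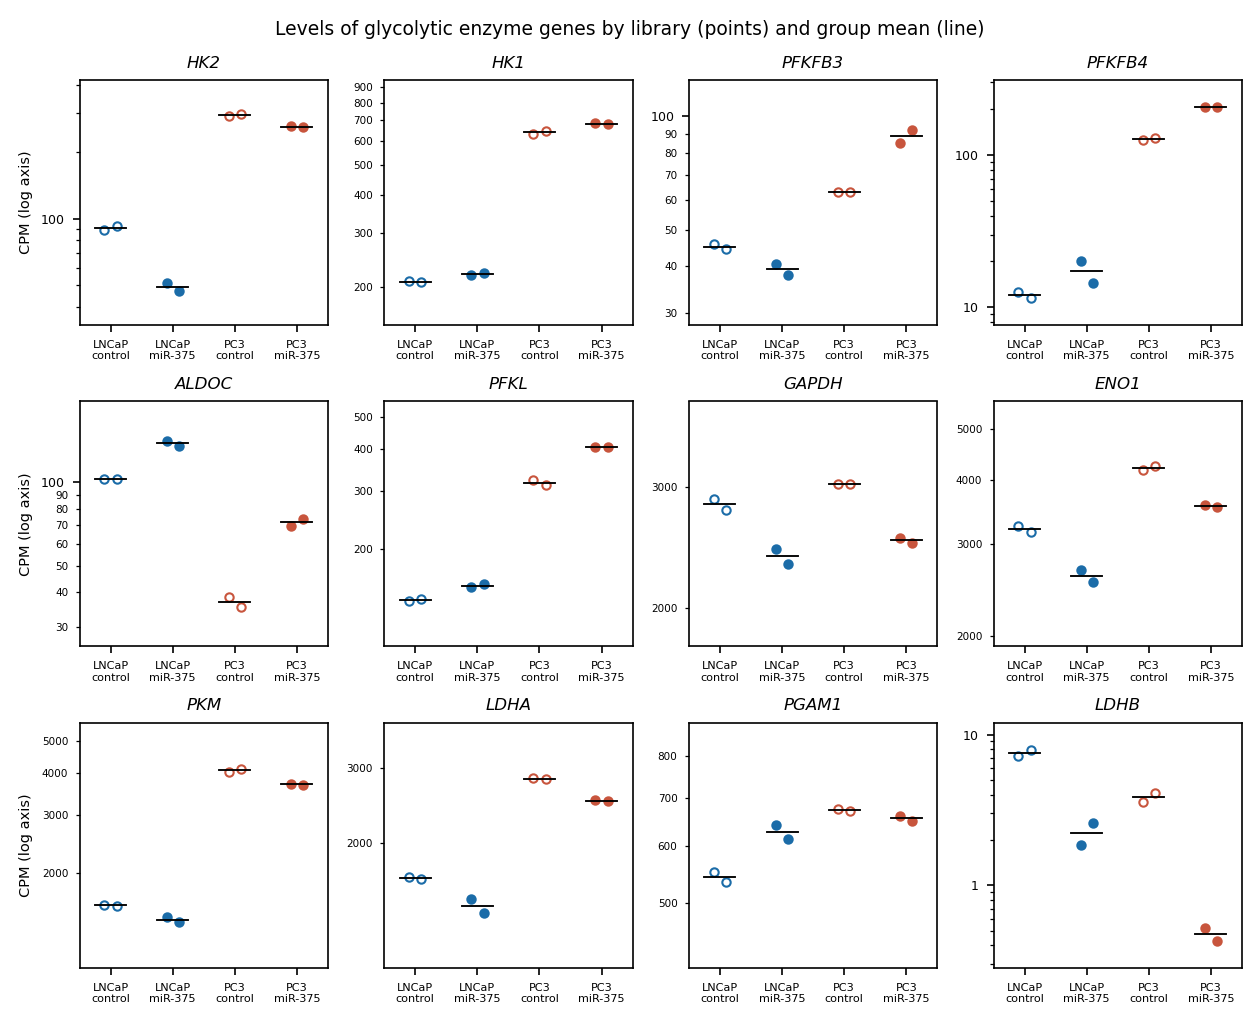
CPM on a log axis in each library (points) and the mean of each group (lines) for 12 glycolytic enzyme genes, with open points for controls, filled points for miR-375, blue for LNCaP and red for PC3. HK2 falls in LNCaP, ALDOC, PFKL and PFKFB3 rise in PC3, and GAPDH, ENO1, PKM, LDHA and LDHB lie lower with miR-375 in both lines.

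In the payoff phase and lactate formation, 5 of the 7 genes fell in each line. The same 5 fell in both: GAPDH, ENO1, PKM, LDHA and LDHB. Among all tested genes, 18.7% fell in LNCaP, 20.8% in PC3 and 10.5% in both. GAPDH stood at 2880 and 2782 CPM in the LNCaP controls and 2441 and 2318 CPM with miR-375 (−0.25 ± 0.03, adjusted p = 1.08e-08). In PC3 it went from 3030 and 3031 CPM to 2530 and 2488 CPM (−0.27 ± 0.03, adjusted p = 9.30e-10). The groups did not overlap in either line. ENO1, the main enolase outside nerve and muscle, fell by 0.30 on the log2 scale in LNCaP (adjusted p = 1.28e-10) and by 0.24 in PC3 (adjusted p = 9.95e-09). PKM, which encodes pyruvate kinase M, fell by 0.14 in both lines (adjusted p = 1.17e-04 and 9.59e-05), and with library totals neither fall was called (−0.02, adjusted p = 0.62, and −0.06, adjusted p = 0.0578). In LNCaP the call of PKM also ended with no filter (adjusted p = 0.0662) and without control library 1 (−0.08) or miR-375 library 2 (−0.07). PGAM1, a mutase, rose in LNCaP by 0.21 (adjusted p = 3.03e-06) and was not called in PC3 (−0.04, adjusted p = 0.374), and the lines differed by 0.25 (adjusted p = 7.36e-05). PGK1, which forms ATP, was called in neither line (0.07 in both, adjusted p = 0.136 and 0.0947). With library totals it was called higher in LNCaP (0.19, adjusted p = 1.96e-05) and in PC3 (0.15, adjusted p = 3.82e-04).

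The lactate dehydrogenase genes both fell, LDHB by far more. LDHA, which encodes the subunit favoured in lactate-forming tissue, stood at 1669 and 1648 CPM in the LNCaP controls and 1481 and 1374 CPM with miR-375 (−0.22 ± 0.03, adjusted p = 5.01e-07), and at 2845 and 2833 against 2525 and 2512 CPM in PC3 (−0.17 ± 0.03, adjusted p = 1.48e-05). LDHB, which encodes the heart-type subunit, holds its match to seed bases 2 to 7 at base 172 of its 3′ UTR. It stood at 7.19 and 7.93 CPM in the LNCaP controls and 1.84 and 2.60 CPM with miR-375. It fell there by 1.77 on the log2 scale (SE 0.23, adjusted p = 9.16e-08). In PC3 LDHB stood at 3.57 and 4.10 CPM (143 and 158 counts) in the controls and 0.524 and 0.427 CPM (22 and 18 counts) with miR-375, an 8.01-fold fall (SE 0.29 on the log2 scale, adjusted p = 6.94e-11). No miR-375 library reached the level of a control of its line. The difference between the lines was 1.24 (adjusted p = 0.015), and it was not called with limma-voom (adjusted p = 0.0596) or without LNCaP miR-375 library 2 (0.087) or PC3 miR-375 library 2 (0.0781). LDHB was a scarce transcript in these tables, its pseudogenes held 2.95% as many counts, and it shares 33.4% of its exon bases with AC010197.2 on the same strand, which had 0 counts. The counts of LDHB, its fall and its ratio to LDHA may therefore rest on only part of its reads.

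PDK1, which encodes a kinase that restrains pyruvate entry into the mitochondrion, fell in LNCaP alone. It holds the other match to seed bases 2 to 7. It stood at 89.9 and 89.3 CPM in the LNCaP controls and 66.4 and 57.5 CPM with miR-375, both below the controls (−0.53 ± 0.06, adjusted p = 4.62e-10). In PC3 it stood at 97.7 and 101 CPM in the controls and 107 and 106 CPM with miR-375 (0.10, adjusted p = 0.123). The lines differed by −0.63 (adjusted p = 2.37e-08).

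Of the 10 other HIF targets, 9 rose in PC3 and 5 in LNCaP, and none fell in either line. Without LNCaP miR-375 library 1 the number in LNCaP was 3. Their median change was 0.80 in PC3 and 0.50 in LNCaP (0.02 and 0.00 over all tested genes). The shares of all tested genes that rose were 22.2% in PC3 and 13.9% in LNCaP, and 20.8% and 18.7% fell. The 10 leave out genes grouped here by another role. Of those, EGLN3, also induced by HIF, fell in both lines. SLC2A1 fell in LNCaP and rose in PC3, and PDK1 fell in LNCaP. ANGPTL4, a secreted inhibitor of lipoprotein lipase, stood at 17.7 and 16.4 CPM in the PC3 controls and 223 and 210.5 CPM with miR-375. It rose by 3.66 ± 0.06 (adjusted p = 2.37e-32), the largest change among the 36 genes in either line. ADM, which encodes the vasodilator adrenomedullin, stood at 18.9 and 19.9 CPM in the PC3 controls and 78.8 and 79.0 CPM with miR-375 (2.03 ± 0.09, adjusted p = 8.68e-21). DDIT4, also called REDD1, an inhibitor of mTORC1, went from 30.5 and 29.7 CPM to 95.9 and 100.2 CPM (1.70 ± 0.06, adjusted p = 4.32e-23). For these genes both miR-375 libraries of PC3 lay more than 3-fold above both controls. In LNCaP none of them was called. ANGPTL4 had 12 and 13 counts in the LNCaP controls and 25 and 19 with miR-375 (0.71, adjusted p = 0.122), ADM had 22 and 14 against 32 and 20 counts (0.43, adjusted p = 0.365), and DDIT4 stood at 38.0 and 39.4 against 37.6 and 37.4 CPM (−0.05, adjusted p = 0.659).

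NDRG1, a stress-responsive gene known as a HIF target, stood at 1220 and 1261 CPM in the PC3 controls and 2457 and 2458 CPM with miR-375 (0.99 ± 0.04, adjusted p = 3.37e-19). In LNCaP it stood at 151 and 152 CPM in the controls and 182 and 157 CPM with miR-375 (0.16 ± 0.04, adjusted p = 0.00324). The groups did not overlap in either line, and the LNCaP call ended without LNCaP miR-375 library 1 (0.10, adjusted p = 0.0533). The mitophagy receptor genes BNIP3 and BNIP3L rose in PC3, by 0.30 (adjusted p = 5.03e-09) and 0.24 (adjusted p = 1.60e-05). Neither was called in LNCaP (−0.02, adjusted p = 0.692, and 0.11, adjusted p = 0.0602), but with library totals BNIP3 was called higher there (0.10, adjusted p = 0.0277), and 9 of 17 alternatives called BNIP3L higher (up to 0.25).

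The collagen prolyl 4-hydroxylase subunits rose in both lines. P4HA1 stood at 71.4 and 76.4 CPM in the LNCaP controls and 122 and 99.7 CPM with miR-375 (0.58 ± 0.08, adjusted p = 6.33e-05), and in PC3 at 582 and 601 against 911 and 899.6 CPM (0.61 ± 0.06, adjusted p = 6.44e-06). P4HA2 stood at 20.6 and 21.2 CPM in the LNCaP controls and 36.1 and 33.5 CPM with miR-375 (0.73 ± 0.06, adjusted p = 1.06e-11), and in PC3 at 99.8 and 103 against 129 and 134 CPM (0.38 ± 0.05, adjusted p = 8.38e-08). The groups did not overlap for either gene in either line. The rise of P4HA2 was larger in LNCaP by 0.36 (adjusted p = 9.75e-04), and that of P4HA1 was not shown to differ (−0.03, adjusted p = 0.916, and 0.18, adjusted p = 0.0206, without LNCaP miR-375 library 2).

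CA9, which encodes the cell-surface carbonic anhydrase IX used as a marker of hypoxia, was scarce. It had 46 and 45 counts in the PC3 controls and 145 and 146 with miR-375 (1.15 and 1.17 against 3.45 and 3.46 CPM), and rose by 1.58 ± 0.33 (adjusted p = 1.17e-04). In LNCaP it had 11 and 14 counts in the controls and 34 and 26 with miR-375 (1.15 ± 0.44, adjusted p = 0.0402). The miR-375 libraries were higher in both lines, but the LNCaP call ended under 9 of 17 alternatives (adjusted p up to 0.197). Those that left out a library were without LNCaP control library 1 (0.166) or 2 (0.0879), without LNCaP miR-375 library 1 (0.197) and without PC3 miR-375 library 2 (0.0502). CA9 shares 38.5% of its exon bases with ARHGEF39 on the opposite strand. ARHGEF39 moved the other way, from 19.3 and 19.8 to 8.21 and 7.81 CPM in LNCaP (−1.29, adjusted p = 3.2e-09) and from 4.42 and 3.89 to 1.64 and 2.28 CPM in PC3 (−1.08, adjusted p = 9.81e-06). ANKRD37, a small ankyrin-repeat gene induced by HIF, rose in LNCaP from 4.29 and 3.29 to 5.50 and 6.28 CPM (0.64 ± 0.21, adjusted p = 0.0145), and that call ended without LNCaP control library 2 (adjusted p = 0.152) or LNCaP miR-375 library 2 (0.0986). In PC3 ANKRD37 went from 2.89 and 3.42 to 4.52 and 4.36 CPM without passing the test (0.49, adjusted p = 0.0548). ANKRD37 shares 35.2% of its exon bases with UFSP2 on the opposite strand, which was called in neither line (0.05, adjusted p = 0.815, and 0.22, adjusted p = 0.104).

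The change with miR-375 differed between the lines for 21 of the 36 genes, by the test of the difference (LNCaP change minus PC3 change). It was higher in LNCaP for 5 and lower for 16, while 10.9% and 15.6% of all tested genes were called in these directions. The 5 were LDHB, EGLN3, HIF1A, P4HA2 and PGAM1. The 16 were led by ANGPTL4 (−2.96, adjusted p = 4.94e-07), SLC2A3 (−2.22, adjusted p = 0.0159), DDIT4 (−1.75, adjusted p = 8.34e-18), ADM (−1.60, adjusted p = 6.62e-04) and EPAS1 (−1.35). NDRG1 followed at −0.82 (adjusted p = 1.97e-12). The difference of ADM was not called without LNCaP control library 1 (−1.12, adjusted p = 0.103). That of SLC2A3 was not called without LNCaP control library 1 (adjusted p = 0.201), LNCaP miR-375 library 1 (0.0652) or PC3 control library 1 (0.103). That of EGLN3 (0.60, adjusted p = 0.0369) was not called with limma-voom (0.59, adjusted p = 0.241) or halved counts (0.68, adjusted p = 0.058). Nor was that of EGLN3 called without LNCaP miR-375 library 1 (0.60), PC3 control library 1 (0.48) or PC3 miR-375 library 1 (0.44). Among the other 18 genes 9 of the differences were lower and 3 higher, with a median of −0.37 (−0.04 over all tested genes), and among the enzymes 7 were lower and 2 higher, with a median of −0.05. Without LNCaP miR-375 library 2, 8 of the 36 differences were higher, and the enzymes had 4 higher and 4 lower. The number of enzymes lower was also 4 without LNCaP control library 1 or 2, and the number higher was 1 without PC3 miR-375 library 2.

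Counted by line, 8 genes rose in both, 8 fell in both, 3 were called in opposite directions (PFKFB3, PFKM and SLC2A1), 3 were called in LNCaP and not in PC3, 11 in PC3 and not in LNCaP, and 3 in neither. The LNCaP falls of PFKFB3 and PFKM ended under 8 and 9 of 17 alternatives, while both calls of SLC2A1 held in every alternative. Of all tested genes, 7.1% rose in both lines, 10.5% fell in both and 4.3% were called in opposite directions. Another 10.7% were called in LNCaP and not in PC3, 21.1% in PC3 and not in LNCaP, and 46.3% in neither. The enzymes held 7 of the 8 that fell in both, with EGLN3 as the other. Of the 11 called in PC3 and not in LNCaP, 9 passed the test of the difference between lines, and HK1 and BNIP3L did not. Of the 3 called in LNCaP and not in PC3, ANKRD37 did not pass it (0.14, adjusted p = 0.809). At 2-fold or more, 6 of the 36 rose in PC3 (ANGPTL4, ADM, DDIT4, SLC2A3, CA9 and EPAS1) and LDHB fell, while 6.92% and 3.65% of all tested genes passed both limits upward and downward. In LNCaP only CA9 rose and only LDHB fell by as much, and 2.41% and 2.21% of all tested genes did.

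**Figure D4:**
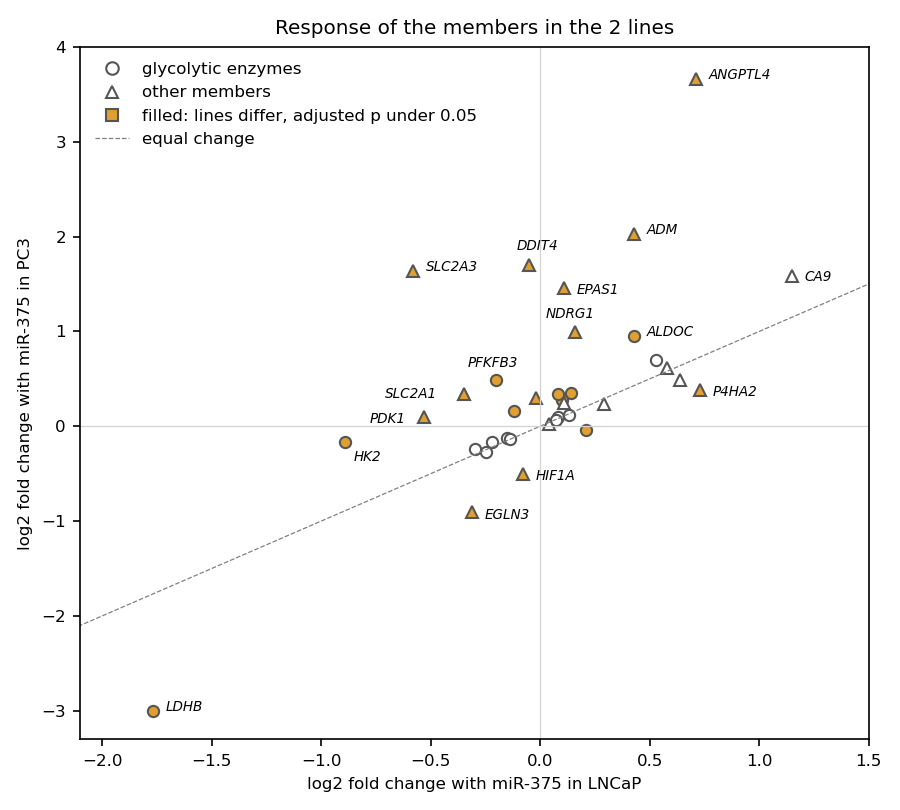
Log2 fold change with miR-375 in PC3 against that in LNCaP for the 36 genes, with circles for glycolytic enzymes, triangles for the other genes, and fill where the test of the difference between lines passed an adjusted p of 0.05. The dashed line marks equal change. ANGPTL4, ADM, DDIT4, EPAS1 and NDRG1 lie well above it, and GAPDH, ENO1, PKM and LDHA lie close to it near the origin.

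The lines also differed before miR-375 was raised, with most of the genes higher in the PC3 controls. Of the 36, 23 were higher in the PC3 controls than in the LNCaP controls and 10 were lower, in a comparison that called 39.2% and 41.2% of all tested genes (80.4% in all). The median difference was 0.46 (−0.07 over all tested genes), and it was 1.96 for the genes outside the enzymes. SLC16A3 was 60.1-fold higher in PC3 (5.91 ± 0.05), and ANGPTL4 (5.53), ADM (5.18), EPAS1 (4.08), NDRG1 (3.03), P4HA1 (8-fold) and HIF1A (2.97) followed among the genes outside glycolysis. EGLN3 was 38.5-fold lower in PC3 (−5.27 ± 0.11). Of the enzymes, PFKFB4 (3.41), HK2 (1.69), HK1 (1.62), PKM (1.35) and PFKL (1.19) were higher in PC3 by over 2-fold, and GPI (−2.37), ALDOC (−1.47) and PFKM (−1.10) were lower by as much. BNIP3 (−0.07, adjusted p = 0.0655), BNIP3L (−0.05, adjusted p = 0.305) and ANKRD37 (−0.26, adjusted p = 0.263) were not called. The control libraries enter these values and those with miR-375, so no relation between them is given.

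**Figure D5:**
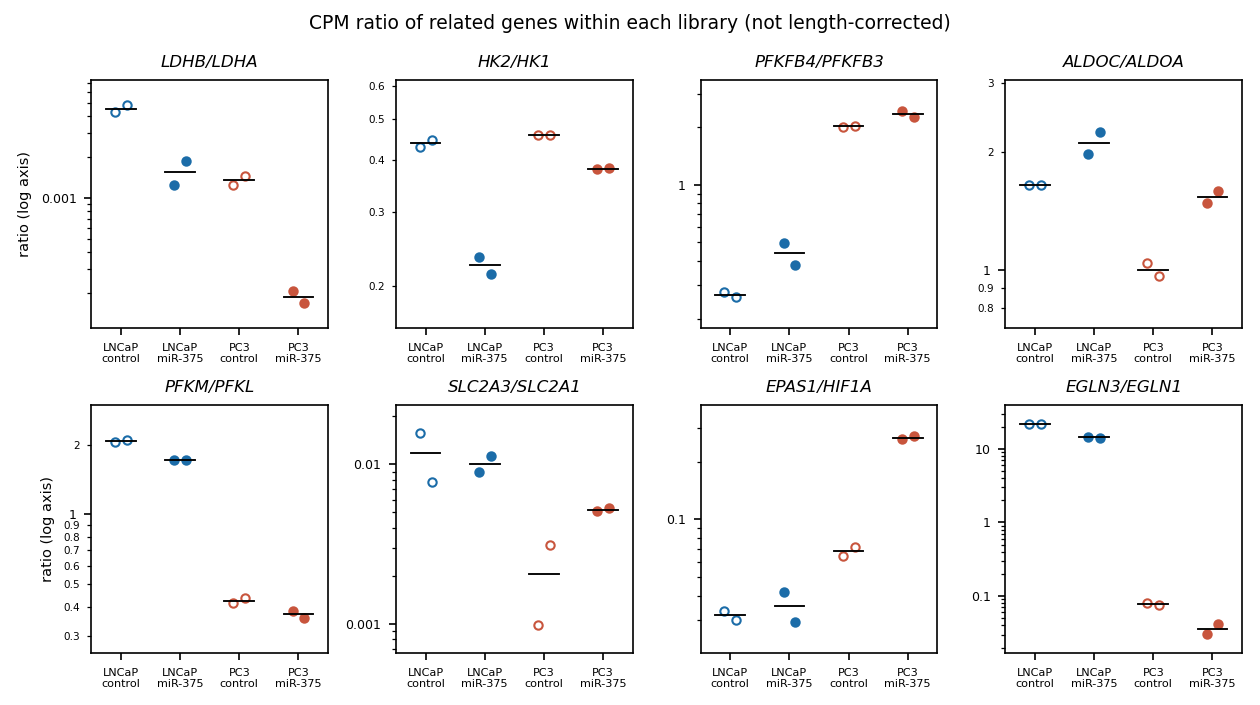
Ratio of the CPM of related genes within each library, on a log axis (points, with group means as lines), with open points for controls, filled points for miR-375, blue for LNCaP and red for PC3. CPM is not corrected for gene length, so a ratio is compared only between libraries. EPAS1 to HIF1A lies higher with miR-375 in PC3, and LDHB to LDHA, HK2 to HK1 and EGLN3 to EGLN1 lie lower in both lines.

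Ratios within a library, which do not depend on the scaling, changed as follows. LDHB to LDHA went from 0.00431 and 0.00481 to 0.00124 and 0.00189 in LNCaP and from 0.00125 and 0.00145 to 0.000207 and 0.000170 in PC3. EGLN3 to EGLN1 went from 22.0 and 21.5 to 14.5 and 14.1 in LNCaP and from 0.0804 and 0.0761 to 0.0305 and 0.0413 in PC3. Both ratios were lower with miR-375 in every library of both lines. ALDOC to ALDOA went from 1.65 in both LNCaP controls to 1.97 and 2.25, and from 1.04 and 0.961 to 1.48 and 1.59 in PC3. PFKM to PFKL went from 2.05 and 2.09 to 1.72 in both LNCaP libraries, and from 0.415 and 0.435 to 0.382 and 0.359 in PC3. PFKFB4 to PFKFB3 went from 0.275 and 0.259 to 0.498 and 0.379 in LNCaP and from 2.01 and 2.04 to 2.43 and 2.26 in PC3. With 2 libraries against 2 no exact test of a ratio can pass 0.05, so these values are descriptions (smallest two-sided p = 0.333).

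Other genes of the same pathways were counted from lists written by function, with earlier results of these data known, so they are no independent check. For each of these lists, the share of all tested genes was 22.2% higher and 20.8% lower in PC3, and 13.9% higher and 18.7% lower in LNCaP. Of 38 tested HIF targets outside the 36, 29 rose and 6 fell in PC3 (median 0.41), and 13 rose and 14 fell in LNCaP (median 0.05). Without LNCaP control library 2 or LNCaP miR-375 library 2, 8 and 9 of them fell in LNCaP. The largest rises in PC3 among those above 5 CPM were HILPDA, a lipid droplet protein gene (2.08, adjusted p = 1.32e-24), the collagen cross-linking enzyme gene LOX (1.70, adjusted p = 1.92e-14), STC2 (1.24, adjusted p = 3.11e-24), GPRC5A (1.08, adjusted p = 2.23e-18) and the carbonic anhydrase gene CA12 (1.04, adjusted p = 7.90e-22). HILPDA stood at 27.9 and 27.4 CPM in the PC3 controls and 119 and 115 CPM with miR-375. In LNCaP the MYC antagonist gene MXI1 fell from 79.2 ± 6.22 to 35.7 ± 0.428 CPM (SD, n = 2), by 1.15 on the log2 scale (adjusted p = 6.65e-17). RBPJ, the Notch pathway transcription factor gene, fell there from 86.1 and 86.6 to 41.6 and 40.7 CPM (−1.07, adjusted p = 9.94e-19). In PC3 RBPJ was lower with miR-375 as well (161 and 154 against 80.3 and 82.6 CPM). HILPDA, STC2 and CA12 fell in LNCaP, by 0.41, 0.32 and 0.44 on the log2 scale (adjusted p = 4.36e-05, 2.13e-07 and 2.05e-09), and the lines differed by −2.49, −1.56 and −1.47 (adjusted p = 1.54e-20, 2.86e-21 and 6.89e-20).

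Of 28 tested genes of glycolysis and pyruvate use outside the 36, 5 rose and 9 fell in PC3 and 6 rose and 11 fell in LNCaP. The 11 became 7 without LNCaP control library 1 or 2 and 6 without LNCaP miR-375 library 2, and with library totals 10 rose in PC3 and 6 fell in LNCaP. PDK4, a starvation-induced relative of PDK1, rose in PC3 from 6.04 and 4.57 to 23.8 and 24.0 CPM (2.17, adjusted p = 4.44e-14). SLC16A7, which encodes the pyruvate carrier MCT2, fell there from 27.2 and 24.0 to 9.33 and 10.1 CPM (−1.39, adjusted p = 5.58e-13). In LNCaP SLC16A7 was lower with miR-375 as well (14.8 and 13.3 against 7.42 and 7.67 CPM). Of 16 tested regulators of HIF, 7 rose and 5 fell in PC3 and 4 rose and 4 fell in LNCaP, none above 5 CPM by as much as 2-fold. Without PC3 miR-375 library 2, 4 rose in PC3, and without LNCaP control library 1 or 2, 2 fell in LNCaP.

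The labelled lines showed their markers: 8 LNCaP markers summed to 5424 to 5453 CPM in the LNCaP controls and 83.4 to 85.6 CPM in the PC3 controls, and 6 PC3 markers to 40.7 to 50.7 and 1912 to 1929 CPM. With miR-375 the LNCaP markers summed to 4168 and 4286 CPM in LNCaP, where 4 of 8 fell and 1 rose. The PC3 markers summed to 1036 and 1027 CPM in PC3 with miR-375, where 5 of 6 fell. Markers of other cell types moved in PC3 beside the HIF targets. The 7 fibroblast markers, of which 4 rose and 1 fell, summed to 173 and 185 CPM in the PC3 controls and 417 and 397 CPM with miR-375, mostly COL1A1 (136 and 142 against 384 and 362 CPM), while DCN was at 0 in both PC3 controls and at 0.333 and 0.474 CPM with miR-375. The 6 endothelial markers, of which 4 were tested and 3 fell, summed to 381 and 382 CPM in the PC3 controls and 215 and 216 CPM with miR-375. Most of this was KDR (321 and 323 against 173 and 173 CPM), and 3 of the 6 had means under 1 CPM in PC3. The 7 leukocyte markers summed to at most 2.02 CPM in any library. Their part in the changes of the HIF targets was not tested.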

How the data were processed

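Whole-number counts per gene, not normalized, were deposited by the authors in one table for all 8 libraries. Per the labels' protocols, poly(A) RNA was made into dUTP-marked paired-end libraries. The submitters' processing notes name hg38 and, without roles, featureCounts, DESeq2, STAR 2.7.1a and fastp. Annotation, strand setting and whether a count is a read or a read pair are unstated in these sources. Of counts from 1 to 20, 68.1% to 70.3% were even. Of 60625 gene lines, 3 were broken and left out. The depth of 33973861 to 41890528 counts a library leaves scarce genes with wide errors.

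The 4 groups, taken from the sample titles, were fitted in 1 model with edgeR 4.0.16 in R 4.3.3 (filterByExpr, TMM with factors from 0.957 to 1.06, robust glmQLFit, glmQLFTest) on 4 residual degrees of freedom, with Benjamini-Hochberg adjustment over 21066 genes. Contrasts compared miR-375 with control libraries of a line, these changes between lines, and the controls of PC3 with those of LNCaP. CPM values use TMM-scaled library sizes. SEs were taken as the absolute log2 fold change over the root of the F statistic. Replicates correlated at r = 0.998 across genes and differed by more than sampling noise (chi-square over degrees of freedom, 3.06 to 3.37). The fit was tested on simulated counts. Alternatives were RLE size factors, library totals, DESeq2 1.42.0, limma-voom (limma 3.58.1), no filter on low counts, a replicate block, fits to only the libraries compared, leaving out each library, halved counts, and adding counts of pseudogenes named after a gene. All 36 genes are named, and of the other pathway lists the genes above 5 CPM that changed at least 2-fold, at most 6 per list and line; 1 gene that this rule names is not reported here. The 36 genes and the lists were chosen with earlier results of these data known. The overlapping transcripts were chosen after their values were seen.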

Additional observations from a re-analysis of the deposited data

Results flagged for a closer look

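For 21 of the 36 genes the change with miR-375 differed between the lines by the test of the difference itself (LNCaP log2 fold change minus that in PC3, edgeR's quasi-likelihood test, adjusted p under 0.05). Among the HIF targets the differences were −2.96 for ANGPTL4, −1.75 for DDIT4, −1.60 for ADM, −0.82 for NDRG1, −0.33 for BNIP3 and 0.36 for P4HA2. Among the HIF subunits and the oxygen sensors they were −1.35 for EPAS1, 0.43 for HIF1A and 0.60 for EGLN3. Glucose transporter genes differed by −2.22 for SLC2A3 and −0.68 for SLC2A1, and PDK1 by −0.63. Among the enzymes they were −0.72 for HK2, −0.69 for PFKFB3, −0.53 for ALDOC, −0.28 for PFKM, −0.26 for ALDOA, −0.21 for PFKL, −0.18 for PFKP, 0.25 for PGAM1 and 1.24 for LDHB.

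The small differences of PFKL, PFKP and ALDOA were lost under many alternatives. That of PFKL was not called without LNCaP control library 1 (adjusted p = 0.0747) or 2 (0.122) or LNCaP miR-375 library 1 (0.124) or 2 (0.0521), with halved counts (0.0538) or with no filter (0.238). That of PFKP was called in 4 of 16 alternatives and that of ALDOA in 3, with adjusted p up to 0.563 and 0.699. With all libraries kept, both were lost with DESeq2, RLE factors, library totals, halved counts and no filter, and ALDOA also with limma-voom (0.0679). For PFKP the fits without a library that did not call it were those without either LNCaP control (0.368 and 0.247), either LNCaP miR-375 library (0.187 and 0.358), either PC3 control (0.0518 and 0.0938) or PC3 miR-375 library 1 (0.136). For ALDOA they were those without either LNCaP control (0.301 and 0.258), LNCaP miR-375 library 2 (0.699), either PC3 control (0.0781 and 0.0954) or either PC3 miR-375 library (0.107 and 0.0817). Groups of 2 libraries are too small for a check of single libraries against their group.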

How the results depend on the processing

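Of the calls among the 36 genes, 12 of 22 in LNCaP, 23 of 30 in PC3, 14 of 21 for the difference and 31 of 33 between the controls held in every alternative. Of single genes, BNIP3 in LNCaP turned to 0.10 with library totals, and without LNCaP miR-375 library 2 the difference between lines turned to 0.14 for PGK1 (lowest −0.01 over the libraries left out) and 0.18 for P4HA1 (lowest −0.11). Without LNCaP control library 1 that of GPRC5A turned to 0.68 (lowest −0.51). None of these 4 was called in the fit of all libraries.

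With library totals, 17 of the 36 rose in LNCaP, as did 9 enzymes and 8 other genes, while 5 enzymes fell there and 4 in PC3. Genes newly called higher were HK1, PFKP, ALDOA, PGK1, BNIP3, BNIP3L and EGLN1 in LNCaP. In PC3 they were PGK1, SLC16A3, EGLN1, ANKRD37 and PDK1. Of the other lists, 6 glycolytic and pyruvate genes, 1 HIF regulator and 8 HIF targets then fell in LNCaP, and 10 glycolytic and pyruvate genes rose in PC3. With no filter 8 enzymes rose and 5 fell in LNCaP, 4 enzymes were lower for the difference, and 7 glycolytic and pyruvate genes and 2 HIF regulators fell in LNCaP. With RLE factors and with halved counts 8 enzymes rose in LNCaP, and with halved counts 4 enzymes were lower for the difference. With limma-voom 3 of the 36 and 1 enzyme were higher for the difference, and 8 glycolytic and pyruvate genes rose in PC3. The cause was not tested.

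Leaving out each library in turn, 7 to 12 of the 36 fell in LNCaP, with 5 to 9 enzymes rising, 5 to 9 enzymes falling and 3 to 6 other genes rising there. For the difference, 4 to 8 of the 36 were higher, 1 to 4 enzymes higher and 4 to 6 enzymes lower. Of the lists, 6 to 11 glycolytic and pyruvate genes, 2 to 4 HIF regulators and 8 to 14 HIF targets fell in LNCaP, and 4 to 6 HIF regulators rose in PC3. A group left with 1 library was assumed to vary like the others.

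The replicate numbers did not pair the libraries: deviations of same-numbered libraries correlated at −0.0402 to 0.0133 over 11811 genes. With the replicate block, 9 of the 36 rose and 12 fell in LNCaP and 21 rose and 9 fell in PC3, and the call of CA9 in LNCaP alone was lost (1.15, adjusted p = 0.0555).

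Depth was low for scarce genes: in LNCaP, CA9 had 11 to 34 counts a library, ADM 14 to 32, ANGPTL4 12 to 25 and SLC2A3 32 to 62.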
